A study of Rattus norvegicus with 42 samples.

Results

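The regions described here are 494 pairs of neighbouring TSS peaks, that is, places where 2 clusters of transcription start sites lay on the same strand within 5000 nt of each other and had no further peak in reach. They were found by sorting the 9969 deposited peaks outside the mitochondrial chromosome by chromosome, strand and start and chaining neighbours separated by a gap of at most 5000 nt. This gave 8094 chains, of which 7334 held a single peak, 494 held exactly 2 peaks (988 peaks) and the remaining chains held 1647 peaks in groups of 3 or more. In each pair the peak that lies first in the direction of transcription is called upstream, and the measurement is the upstream share, the percentage of the raw tags of the pair that fell in the upstream peak of a library. No expression value entered the choice of chains, but every deposited peak had reached at least 10 TPM (tags of the peak scaled by all tags of the library) in at least 1 library (the lowest maximum was 10.0011 TPM), and this threshold bears on several results below.

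CAGE (cap analysis of gene expression) captures the capped 5' ends of RNAs. A tag is read here as the nucleotide where RNA polymerase II began a transcript. Whether each peak is a separate start was not tested. Many mammalian genes can be started from alternative promoters, and a change of the start can alter the leader of the mRNA, its first exon or the N terminus of the protein, or only the elements that control it. Sharp promoters place most starts on a few nucleotides and are common at tissue-specific genes with a TATA box, whereas broad promoters spread them over a wide stretch and are common at housekeeping genes with CpG islands. Slow and fast muscle fibres express different forms of many contractile proteins, and unloading of a slow muscle is known to shift its fibres towards the fast type.

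The samples were m. soleus, a slow postural muscle, and m. extensor digitorum longus (EDL), a fast muscle, from 21 mature Wistar rats, each of which gave 1 library per muscle (42 libraries, 14 groups of 3 rats). Control rats (C) were active, and the other groups underwent hindlimb unloading by tail suspension for 1, 3 or 7 days (D1, D3, D7) or unloading for 7 days followed by 1, 3 or 7 days of renewed loading (R1, R3, R7). All animals of the recovery groups had thus been unloaded first. Each library of a group came from another rat. Whole muscle was used, so fewer cells of a type and less RNA per cell cannot be told apart. The peaks carry no gene names, the annotation at hand was of another assembly, and pairs are therefore named by their position in Rnor_6.0, with no statement on gene, exon or fibre type, and no marker of fibre or cell types could be looked up.

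The libraries held between 1778712 and 23103236 tags, with a median of 11577496 in soleus and 6991564 in EDL, and 72.4% to 95.9% of the tags lay in the deposited peaks. The pairs accounted for 7.76% to 13.7% of each library (159199 to 2526292 tags). The libraries were sequenced on 6 lanes, as the column names state, with all 6 control libraries on lane 1 and all 6 R1 libraries on lane 4. No lane held both control and R1 libraries, so R1 cannot be compared with the control within a lane, and in EDL lanes 1 and 4 held no other group. In soleus 1 D1 library shared lane 1 with the controls and 1 R3 library shared lane 4 with R1, and the other phases of both muscles shared lanes in part. No library repeated another, since at least 90.4% of the peaks differed in count between any of them. Numbers of tags in the 2 peaks of a pair were tested with edgeR (quasi-likelihood) as a change in the log2 ratio of upstream to downstream tags, and a pair was called at a Benjamini-Hochberg adjusted p under 0.05 over all pairs tested in that comparison.

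The pairs were spread over 21 chromosomes, 251 on the plus and 243 on the minus strand. The gap between the peaks had a median of 713.5 nt (quartiles 120.75 and 2566 nt, range 19 to 4980 nt), and the most used start positions of the peaks lay a median of 1215 nt apart. In 152 pairs the gap was under 200 nt, in 129 it was 200 to 1000 nt and in 213 it was wider. Upstream peaks were sharper: the central stretch of their tags, from percentile 10 to percentile 90 of the tag positions, had a median of 47 nt against 83 nt downstream, and it was narrower upstream in 308 pairs and wider in 175. The most used nucleotide held a median of 25.2% of the upstream tags and 17.95% of the downstream tags. A central stretch of at most 20 nt was found in 125 upstream and 61 downstream peaks, and one of over 300 nt in 47 upstream and 102 downstream peaks. Tags on the opposite strand in the 500 nt ahead of a peak were few beside the tags of the peak, with a median of 0.249 per 100 tags for upstream and 0.577 for downstream peaks. Few tags fell between the peaks, with a median of 0.315% of the tags of the pair (quartiles 0.00830% and 2.31%).

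The upstream start was the more used of the 2 in most pairs. With the tags of all 21 libraries of a muscle summed, the median upstream share was 63.1% in soleus and 63.5% in EDL, and it was over 50% in 306 of 494 pairs in soleus and 303 in EDL. A nearly exclusive upstream start, with a share over 90%, was seen in 112 pairs in soleus and 115 in EDL, and a share under 10% in 33 and 46. The share rose with the gap in soleus: the median was 50.7% in pairs under 200 nt apart, 59.0% at 200 to 1000 nt and 75.5% beyond 1000 nt. On the scale of the level, upstream peaks had a median of 11.025 TPM and downstream peaks of 6.40 TPM over the 42 libraries, beside 9.41 TPM for single peaks and 11.6 TPM for peaks of larger chains. Single libraries differed little in this respect, with medians of the share over pairs of 61.6% to 67.3%.

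A few pairs dominated the tags. The pair on chr19:56674116-56677617 (minus strand, gap 25 nt) held 31.2% of all tags in pairs, and its upstream share was 97.4% ± 0.745 in soleus and 96.9% ± 1.34 in EDL (SD, n = 21 libraries each). In this pair the central stretch of tags was 3 nt in the upstream and 1373 nt in the downstream peak. The pair on chr14:46329466-46330102 (minus strand, gap 66 nt) held 17.0% and started mostly downstream, with shares of 12.9% ± 2.504 in soleus and 12.6% ± 2.95 in EDL. The pair on chr14:46588195-46590608 (plus strand, gap 1096 nt) held 3.59% and was balanced, at 59.0% ± 7.39 and 62.8% ± 4.43. These 3 pairs were singled out by their number of tags, after the values were seen. Both chr14 pairs overlapped another pair on the opposite strand, chr14:46329436-46330053 (plus strand) and chr14:46588246-46590655 (minus strand). The origin of these tags on both strands was not tested.

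The mean upstream share differed by at most 10 percentage points between the muscles in most pairs and by more than 20 points in a few. Over the 345 pairs with at least 10 tags in each of the 42 libraries, the mean share in soleus and in EDL differed by a median of 2.46 percentage points, and the difference exceeded 10 points in 34 pairs and 20 points in 11. Pearson's r of the mean shares across these pairs was 0.966, a description only, since both means come from the same rats. The test over all phases called 127 of the 345 pairs (36.8% called), 73 with a higher and 54 with a lower upstream share in soleus. A peak can be in the table through a single muscle, and among the 170 of these pairs that would stay listed from either muscle alone, 54 were called (31.8%), 30 higher and 24 lower. In the controls alone 44 of 345 pairs were called (12.8%), and 43 of these were among the 127. This number was 25 to 44 with single libraries left out (28 without the EDL control library of rat U6, 25 without that of U8), and it was 15 among the 170 pairs listed from either muscle (8.82%). With the rat as a block the test over all phases called 128 pairs, 119 of them among the 127, and with the sequencing lane as a term it called 121, of which 114 were among the 127. At a minimum of 50 tags fewer pairs were tested, and the counts over all phases and in the controls were lower, as given in the part on processing.

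**Figure D1:**
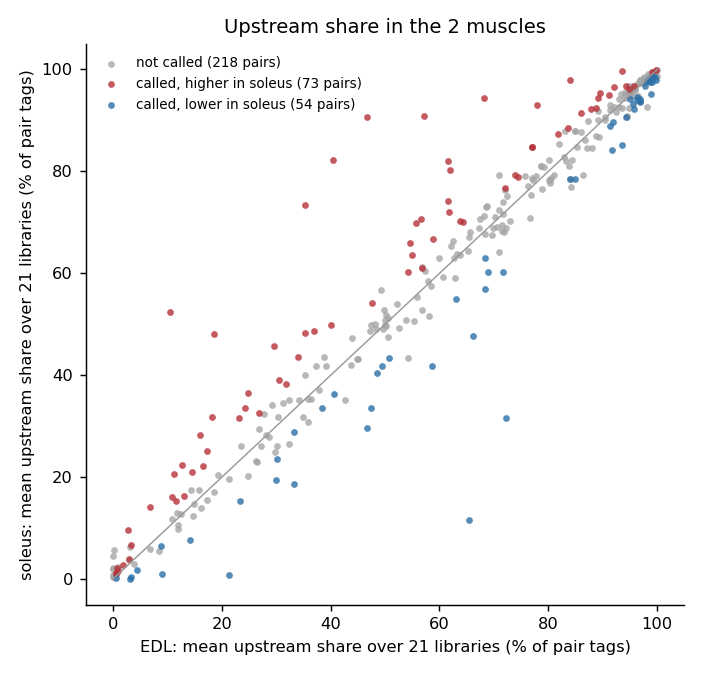
Mean upstream share (% of the tags of the pair) in EDL (horizontal axis) and soleus (vertical axis), each point 1 of the 345 pairs tested, as a mean over 21 libraries of a muscle. The line marks equal shares, red points the 73 pairs called higher and blue points the 54 pairs called lower in soleus, and most points lie near the line while a few stand more than 20 points away.

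The pair on chr7:139697960-139702115 (plus strand, gap 3502 nt) showed the largest higher share in soleus by the naming rule. Its share in the soleus libraries ran from 31.6% to 76.4% (median 49.3%), and in the EDL libraries from 5.33% to 14.3% (median 10.2%), so that the muscles did not overlap. The log2 ratio of upstream to downstream tags was higher in soleus by 3.28 (SE 0.15, adjusted p = 1.24e-18, edgeR). The levels show where the difference lay: the upstream peak averaged 21.5 TPM in soleus and 33.5 TPM in EDL, whereas the downstream peak averaged 20.1 and 308.5 TPM. The levels thus differed between the muscles mainly at the downstream start (the levels of single peaks were not tested between muscles).

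The pair on chr20:3438277-3440084 (minus strand, gap 1094 nt) differed through its upstream start. Its share ran from 54.5% to 94.9% in soleus (median 83.3%) and from 26.8% to 55.0% in EDL (median 38.9%), with 1 soleus library, of the R7 group, below the highest EDL library. The difference in log2 ratio was 2.93 (SE 0.16, adjusted p = 1.12e-16, edgeR). The upstream peak averaged 119.2 TPM in soleus and 13.8 TPM in EDL, and the downstream peak 20.4 and 19.6 TPM.

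On chr20:56195288-56197044 (minus strand, gap 1445 nt) the upstream start held 87.4% to 99.2% of the tags in soleus and 39.3% to 96.1% in EDL, and the ranges overlapped. Here the upstream peak averaged 64.8 TPM in soleus and 63.4 TPM in EDL, and the downstream peak averaged 3.68 TPM in soleus and 38.0 TPM in EDL. The EDL shares were 62.9%, 87.4% and 71.5% in the controls, 90.7%, 81.9% and 88.3% at D1 and 41.6%, 54.4% and 49.0% at R1, and no change in EDL at D1 or R1 was called for this pair.

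The reverse direction was seen on chr10:82026908-82032017 (minus strand, gap 4557 nt), where the share ran from 2.67% to 33.3% in soleus (median 10%) and from 34.2% to 91.4% in EDL (median 61.4%), with no overlap. The log2 ratio was lower in soleus, with a difference of -4.08 (SE 0.27, adjusted p = 1.22e-14, edgeR). The upstream peak averaged 1.253 TPM in soleus and 14.6 TPM in EDL, and the pair would not stay listed from each muscle alone, so its difference is a description. Among pairs that stay listed, the one on chr13:90589436-90593307 (minus strand, gap 3115 nt) had shares of 4.48% to 57.5% in soleus and 41.2% to 90.3% in EDL (log2 difference -2.82, SE 0.27, adjusted p = 7.10e-11, edgeR), with mean levels of 6.27 and 22.5 TPM upstream and of 19.8 and 8.83 TPM downstream in soleus and EDL.

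**Figure D2:**
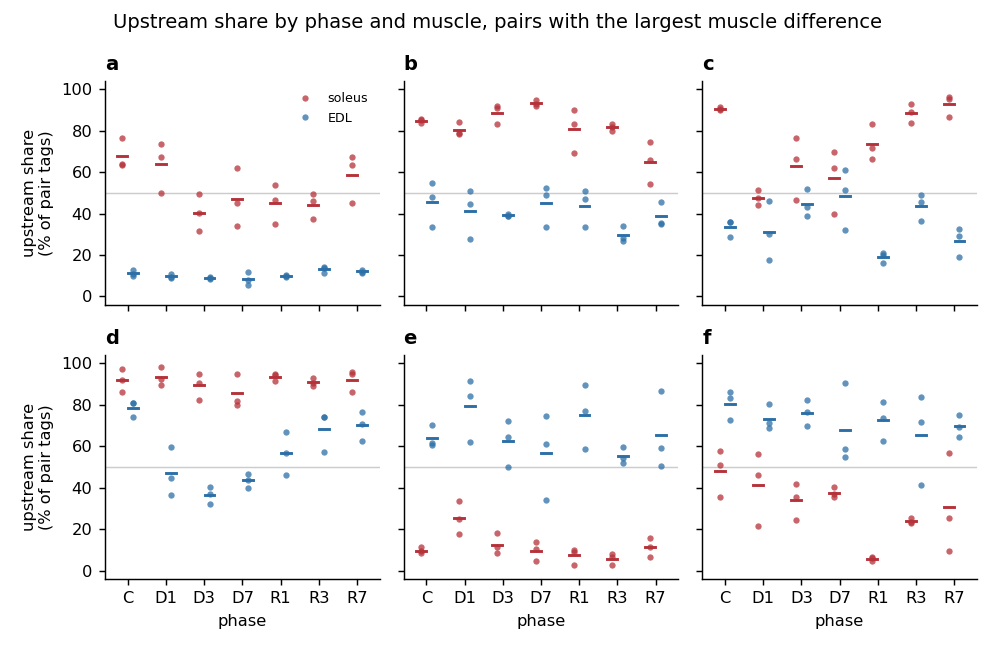
Upstream share (% of pair tags, vertical axis) by phase (horizontal axis) in soleus (red) and EDL (blue), points for libraries and bars for group means of 3 rats, for the pairs starting at 139697960 on chr7 (a), 3438277 on chr20 (b), 196300916 on chr2 (c), 160933680 on chr3 (d), 82026908 on chr10 (e) and 90589436 on chr13 (f). In panels a and e no soleus library overlaps an EDL library, in c the soleus shares fall towards those of EDL at D1, D3 and D7, and in d the EDL shares fall away from those of soleus in the same phases.

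Higher shares in soleus were also measured on chr2:196300916-196304231 (minus strand), with 73.4% ± 18.7 in soleus and 35.3% ± 12.7 in EDL, and on chr3:160933680-160936051 (plus strand), with 90.9% ± 5.16 and 57.2% ± 16.2 (SD, n = 21 each; adjusted p = 1.02e-13 and 7.50e-14, edgeR), and both are described by phase further on. The remaining named pairs differed by less than these. On chr2:196330742-196334708 (plus strand) the mean shares were 80.3% ± 5.56 in soleus and 62.0% ± 8.14 in EDL, on chr2:199831971-199832521 (plus strand) 45.7% ± 7.75 and 29.6% ± 5.82, and on chr1:220745744-220746292 (minus strand) 69.9% ± 6.73 and 55.6% ± 7.10 (SD, n = 21 each). Lower shares in soleus were measured on chr2:201288746-201289597 (plus strand), with 47.7% ± 10.7 and 66.2% ± 8.63, on chr11:75144784-75145940 (minus strand), with 18.8% ± 5.37 and 33.3% ± 7.93, on chr15:34251655-34256167 (plus strand), with 56.9% ± 9.17 and 68.4% ± 6.29, on chr5:148046755-148051586 (plus strand), with 0.967% ± 1.02 and 9.05% ± 8.53, on chr2:187914723-187915764 (minus strand), with 15.3% ± 2.96 and 23.4% ± 3.28, and on chr1:89487049-89488455 (minus strand), with 55.0% ± 12.9 and 63.1% ± 7.34. All of these remaining pairs passed the test (adjusted p between 2.27e-11 and 0.00386, edgeR), although the ranges over libraries overlapped in each. The pairs starting at 199831971 on chr2 and 148046755 on chr5 would not stay listed from each muscle alone, nor would those starting at 196300916 on chr2 and 160933680 on chr3 in the plot of shares by phase and muscle, and the difference of these 4 pairs is a description.

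Changes of start usage during unloading were few, and falls of the upstream share outnumbered rises in each phase. In soleus 2 of 430 pairs passed at D1 (0.465% called), then 4 pairs at D3 (0.93%) and 8 pairs at D7 (1.86%), and the share was lower in 2, 3 and 6 of them. In EDL 6 of 356 pairs passed at D1 (1.69%), then 8 pairs at D3 (2.25%) and 8 pairs at D7 (2.25%), and the share was lower in 6 pairs in each phase. The 356 and 430 pairs had at least 10 tags in each of the 21 libraries of the muscle, and 64 pairs in soleus and 138 in EDL did not and were not tested. With single libraries left out the soleus counts ran from 1 to 4, 1 to 9 and 0 to 12 and the EDL counts from 0 to 9, 3 to 21 and 2 to 10, and with the lane as a term all 6 counts were 0. The fit with the lane took all 42 libraries and only 345 pairs, so its counts come from fewer pairs. At a minimum of 50 tags fewer pairs were tested, and fewer were called in soleus at D1 and D7 and in EDL in each of these phases. DESeq2 called more in soleus at D3. The calls in different phases share the control libraries and are therefore not independent. Control and phase did not overlap in share in 74 soleus pairs at D1 (17.2%), 96 pairs at D3 (22.3%) and 93 pairs at D7 (21.6%), and in recovery in 159 pairs at R1 (37%), 76 pairs at R3 (17.7%) and 72 pairs at R7 (16.7%). In EDL these were 71 pairs at D1 (19.9%), 84 pairs at D3 (23.6%) and 56 pairs at D7 (15.7%), and in recovery 50 pairs at R1 (14%), 55 pairs at R3 (15.4%) and 33 pairs at R7 (9.27%). Between the muscles the control libraries did not overlap in 91 of 345 pairs (26.4%). With 3 libraries per group some pairs fail to overlap without any change, and how many was not computed. These numbers are therefore not counts of changed pairs. The 159 soleus pairs at R1 include pairs with a peak that reached 10 TPM in soleus R1 libraries alone. That number is therefore not read as a property of the pairs.

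**Figure D3:**
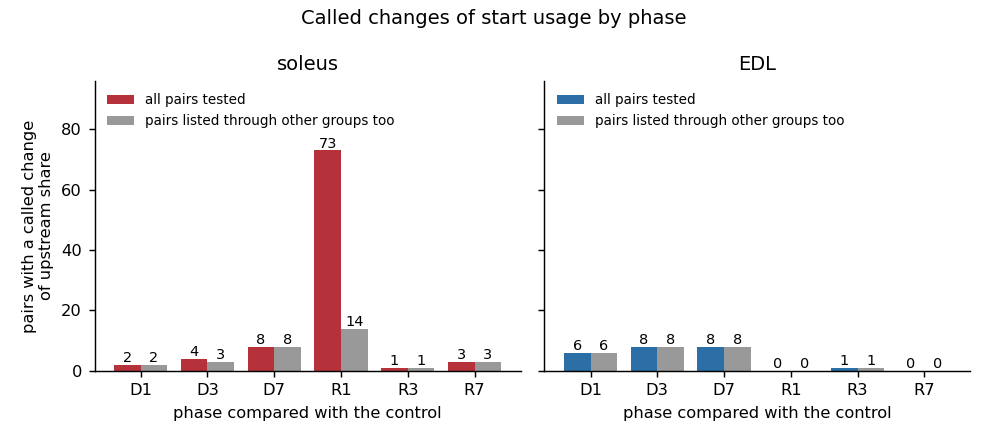
Number of pairs (vertical axis) with a called change of upstream share against the control, by phase (horizontal axis), in soleus (left) and EDL (right). Coloured bars count all pairs tested, and grey bars count the calls among pairs that reach the 10 TPM threshold outside the 2 groups compared, so that 73 calls at R1 in soleus stand beside 14, and 0 beside 0 in EDL.

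The pair on chr2:196300916-196304231 (minus strand, gap 2824 nt) fell in soleus in all 3 unloading phases. Its shares were 89.8%, 91.3% and 90.3% in the controls, 51.4%, 47.4% and 44.4% at D1, 66.2%, 46.5% and 76.5% at D3, and 62.1%, 69.8% and 40% at D7. At R3 they were 93.1%, 83.7% and 89.2% and at R7 96.2%, 95.4% and 86.7%. At R1 they were 66.5%, 83.1% and 71.7%, also called lower over all 430 pairs, but not in the R1 test restricted by listing that is described below. Every unloaded library lay below every control library, and R3 and R7 overlapped the controls. The change in log2 ratio was -3.36 at D1 (SE 0.54, adjusted p = 0.00239), -2.53 at D3 (SE 0.55, adjusted p = 0.0224) and -2.66 at D7 (SE 0.56, adjusted p = 0.0208, edgeR). At the level of peaks, the downstream start rose from 0.732 TPM in the controls to 8.14 TPM at D1 (log2 fold change 3.55, adjusted p = 0.00110), while the upstream start was at 6.89 and 7.53 TPM. In EDL the same pair started mainly downstream, with control shares of 36.0%, 28.6% and 36.1%, and the soleus values at D1 lay between those of control soleus and control EDL. The pair with the second call at D1 in soleus, on chr10:72188004-72188892 (minus strand, gap 396 nt), fell from 50.7%, 60.5% and 66.1% to 26.9%, 33.2% and 40.9% (log2 ratio -1.49, SE 0.31, adjusted p = 0.0313, edgeR).

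Other pairs named in soleus were called at D3 or D7. On chr19:30935893-30936325 (plus strand, gap 32 nt) the shares of 51.1%, 48.6% and 52.5% in the controls were followed by 24.4%, 18.4% and 25.6% at D3 (log2 ratio -1.85, SE 0.27, adjusted p = 0.000755, edgeR), and the fall was called at D7 too. On chr11:83921978-83927764 (minus strand) the mean share was 91.6% ± 0.360 in the controls and 70.1% ± 13.2 at D3. On chr17:9797883-9798562 (plus strand) it was 86.5% ± 4.01 and 96.4% ± 1.66, the only rise called at D3. Its downstream peak reached 10 TPM only in the soleus control library of rat U8, which had the lowest control share (81.9%). Such a listing favours a higher share at D3, and the rise is a description. At D7 the share was lower on chr2:41417545-41418644 (plus strand, 42.6% ± 2.87 in controls, 16.6% ± 1.099 at D7) and on chr8:116332731-116336571 (plus strand, 67.7% ± 8.50 and 33.1% ± 5.89), and higher on chr1:89487049-89488455 (49.9% ± 6.06 and 75.1% ± 5.07) and on chr2:198380768-198382281 (minus strand, 91.5% ± 5.97 and 99.3% ± 0.407, SD, n = 3 in each group). The last-named pair and the one on chr8 were near the threshold, with adjusted p of 0.0446 and 0.0471 (edgeR).

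In EDL 3 pairs recurred. The pair on chr3:160933680-160936051 (plus strand, gap 1402 nt) had shares of 80.8%, 80.6% and 73.9% in the controls, 36.6%, 44.4% and 59.7% at D1, 40.3%, 31.9% and 36.9% at D3, and 43.9%, 46.8% and 39.98% at D7, with no overlap between the controls and any unloading phase. The change in log2 ratio was -1.91 (SE 0.41), -2.67 (SE 0.39) and -2.24 (SE 0.39), with adjusted p of 0.0225, 0.000560 and 0.00316 (edgeR). With the lane as a term the sign turned at D1 (0.50) and D7 (0.37). Its downstream peak rose from 3.496 TPM to 13.4, 47.4 and 31.7 TPM (log2 fold changes 1.97, 3.36 and 2.77, adjusted p = 0.0275, 0.00213 and 0.00890), while the upstream peak did not pass the test in any of these phases and averaged 12.6 TPM in the controls and 12.5, 26.3 and 23.4 TPM. In soleus the same pair stayed between 79.7% and 98.1%. The pair on chr2:196402119-196402757 (minus strand, gap 192 nt) had EDL shares of 28.6%, 40% and 36.5% in the controls and of 15.1%, 8.18% and 12.4% at D1, 10.8%, 10.4% and 10.4% at D3 and 13.6%, 16.3% and 15.1% at D7 (log2 ratio -1.96, -2.11 and -1.54, adjusted p = 0.0178, 0.00111 and 0.0161, edgeR), and here too the downstream peak rose, from 11.2 TPM to 31.8, 72.1 and 64.8 TPM. In soleus its share was called lower at R7 (26.1% ± 3.88 in the controls, 11.7% ± 0.816 at R7). The third recurrent pair, on chr2:30748316-30750762 (minus strand, gap 2144 nt), moved at its rare upstream start: EDL shares of 9.84%, 9.44% and 7.45% in the controls stood against 2.82%, 1.80% and 1.95% at D3, 1.57%, 1.35% and 0.406% at D7 and 1.20%, 1.59% and 3.51% at R3. The EDL shares at D1 (3.38%, 2.82% and 3.03%) and R1 (3.73%, 2.97% and 3.67%) also lay below the controls, without a call. At R7 they overlapped the controls. The soleus shares of this pair were 6.72%, 4.19% and 6.56% in the controls and 3.09% or lower in all libraries from D3 to R7, also without a call. At D1 the soleus shares overlapped the controls.

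The remaining pairs named in EDL were called in 1 phase each. The share fell at D1 on chr2:78213118-78215045 (plus strand, 39.1% ± 8.92 in controls, 11.2% ± 8.67 at D1), where the downstream peak rose from 34.2 to 244.0 TPM, and at D3 on chr3:47578378-47578628 (plus strand, 91.1% ± 4.49 and 70.5% ± 6.15). It was higher at D3 on chr9:82563613-82564293 (minus strand, 44.0% ± 9.18 and 73.3% ± 14.1) and on chr1:225067921-225071113 (plus strand, 77.0% ± 2.16 and 91.2% ± 1.63). At D7 it was higher on chr10:75457193-75459372 (minus strand, 71.6% ± 10.97 and 96.2% ± 2.24), where the downstream peak fell from 11.3 to 1.87 TPM, and on chr18:26212730-26213667 (minus strand, 14.1% ± 1.58 and 31.5% ± 6.14), where the downstream peak fell from 40.5 to 7.47 TPM, and lower on chr5:129113054-129113387 (minus strand, 62.2% ± 6.60 and 39.8% ± 3.44).

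On the first day of recovery start usage in soleus changed in more pairs than in any other phase, but much of this count is tied to the listing threshold. At R1 73 of 430 pairs were called in soleus (17.0% called), 40 with a higher and 33 with a lower upstream share, and 129 had an unadjusted p under 0.05. Fewer were tested and fewer called at a minimum of 50 tags, as given in the part on processing. In 108 of the 494 pairs at least 1 peak had reached 10 TPM in soleus R1 libraries alone (in the other groups this number was between 2 and 21), and such a peak is in the table only because it was high there. Of the 73 calls 42 were pairs of this kind, so the count of 73 is not read as a property of the pairs. Among the 348 tested pairs that stay listed without the R1 and without the control libraries, 31 were among the 73, and 14 passed when the p-values were adjusted over these 348 pairs (4.02% called), 7 higher and 7 lower. The same restriction left 8 of 415 pairs at D7 (1.93%), 1 of 420 at R3 (0.238%) and 3 of 416 at R7 (0.721%).

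In EDL no pair of 356 was called at R1 (0% called, edgeR), with 30 at an unadjusted p under 0.05 and 0 calls by DESeq2. The comparison in EDL set the same lanes against each other as that in soleus, and lane and phase cannot be told apart in either. The median SE of the change at R1 was 0.447 in EDL and 0.392 in soleus. The percentage of tags in deposited peaks was 89.1% to 93.02% in the R1 and 72.4% to 92.6% in the control libraries of soleus (92.1% to 95.3% and 73.1% to 94.0% in EDL), and its part in the result was not tested. In a fit over all 42 libraries 50 pairs were called in soleus at R1, and with the lane as a term 0 were called and 21 had an unadjusted p under 0.05. In the fit with the lane the median SE was 1.13 in place of 0.40. The median change of the 50 in the direction without the lane was 1.83 without and 1.99 with the lane, and 46 of the 50 kept their sign. The 50 were picked by the fit without the lane and include pairs listed through soleus R1 alone, so nothing is read from these values.

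**Figure D4:**
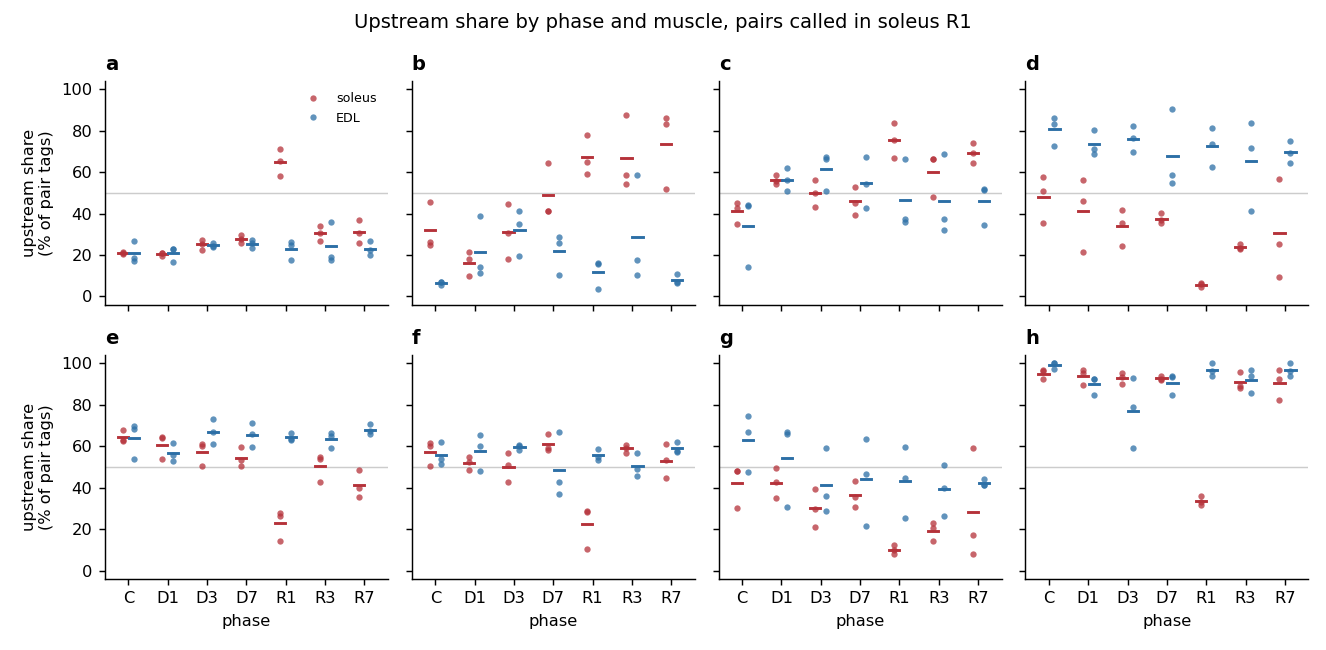
Upstream share (% of pair tags, vertical axis) by phase (horizontal axis) in soleus (red) and EDL (blue), points for libraries and bars for group means of 3 rats, for the named pairs that stay listed without soleus R1, starting at 138397491 on chr3 (a), 85970559 on chr10 (b), 85724842 on chr10 (c), 90589436 on chr13 (d), 19876077 on chr15 (e), 61690548 on chr9 (f) and 31570224 on chr1 (g), and for the pair starting at 99533744 on chr13 (h), whose downstream peak was listed through soleus R1. In panels a, d, e, f and h the soleus R1 libraries stand apart from every other soleus and EDL library.

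The pair on chr3:138397491-138398022 (minus strand, gap 34 nt) had the clearest change among pairs that stay listed. Its soleus shares were 20.5%, 21.7% and 21.1% in the controls and 71.3%, 65.3% and 58.1% at R1, and every other library of either muscle lay between 16.7% and 36.9%. The log2 ratio changed by 2.80 (SE 0.26, adjusted p = 5.69e-07, edgeR). The upstream peak rose from 3.89 to 19.5 TPM (log2 fold change 1.99, adjusted p = 0.000107), while the downstream peak was at 14.6 and 10.6 TPM (log2 fold change -0.81, within the fold limit for peaks). The 2 starts of this pair exchanged rank.

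Other pairs moved through the downstream start. On chr9:61690548-61691445 (minus strand, gap 37 nt) the control shares of 59.9%, 61.5% and 50.6% were followed by 10.3%, 28.6% and 28.2% at R1 (log2 ratio -2.34, SE 0.39, adjusted p = 0.000219, edgeR), as the downstream peak rose from 26.2 to 216.0 TPM (log2 fold change 2.74, adjusted p = 2.67e-05) and the upstream peak averaged 34.2 and 51.0 TPM. On chr15:19876077-19876680 (minus strand, gap 71 nt) shares of 67.6%, 62.8% and 62.4% stood against 14.2%, 26.2% and 28.0% (log2 ratio -2.66, SE 0.33, adjusted p = 9.12e-06, edgeR), with the downstream peak at 7.72 TPM in the controls and 53.1 TPM at R1 and the upstream peak at 13.9 and 15.2 TPM. No R1 library overlapped a control library in either pair. In EDL the shares at R1 were 53.4%, 55.0% and 58.5% for the first and 63.2%, 63.3% and 66.4% for the second, within the range of the EDL controls.

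The upstream start fell in the following pairs. On chr13:90589436-90593307 the shares were 57.5%, 35.6% and 51.1% in control soleus and 5.80%, 4.48% and 6.64% at R1 (log2 ratio -3.96, SE 0.66, adjusted p = 0.000202, edgeR). The upstream peak fell from 8.31 to 2.22 TPM (log2 fold change -2.26, adjusted p = 0.000270) and the downstream peak rose from 8.73 to 37.2 TPM (log2 fold change 1.67, adjusted p = 0.0302). At R3 the shares were 23.1%, 25.5% and 23.5%. On chr1:31570224-31576302 (plus strand, gap 4888 nt) shares of 48.2%, 48.2% and 30.1% stood against 7.94%, 9.79% and 12.3% at R1, and the upstream peak fell from 8.25 to 2.69 TPM (log2 fold change -2.06, adjusted p = 0.00457). The downstream peak was at 11.6 and 23.6 TPM, a log2 fold change of 0.64 that was within the fold limit for peaks, and the log2 ratio changed by -2.71 (SE 0.64, adjusted p = 0.00493, edgeR).

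A higher upstream share at R1 was called for the following pairs. On chr10:85724842-85725483 (minus strand, gap 397 nt) soleus shares of 42.8%, 35.1% and 45.2% in the controls were followed by 83.9%, 75.4% and 66.9% at R1 (log2 ratio 2.18, SE 0.37, adjusted p = 0.000806 over the 348 pairs) and by 73.9%, 64.5% and 69.5% at R7 (1.70, SE 0.38, adjusted p = 0.0389, edgeR). Its upstream peak rose from 4.92 to 38.3 TPM at R1. The soleus shares of this pair were over 50% at D1 too (58.5%, 55.9% and 54.3%). In EDL its shares were 44.1%, 14.3% and 43.6% in the controls, 62.1%, 51.1% and 56.2% at D1 and 66.4%, 67.2% and 51.0% at D3. None of these D1 and D3 changes was called. On chr10:85970559-85974860 (minus strand, gap 3871 nt) shares of 24.6%, 26.1% and 45.5% stood against 59.1%, 64.9% and 77.7% (log2 ratio 2.20, SE 0.72, adjusted p = 0.0409 over all 430 pairs, edgeR). It was not among the 14 that passed over the 348 pairs, whereas the other 6 described so far were, and the downstream peak fell from 22.3 to 8.86 TPM (log2 fold change -1.70, adjusted p = 0.000453). This call was lost when any of 6 libraries was left out, among them those of control rats U6 and U7 and R1 rats U20 and U21, and with the lane as a term the value was -0.47. The soleus shares of this pair were also over 50% at R3 (87.4%, 54.4% and 58.8%) and R7 (86.2%, 83.2% and 51.9%), without a call.

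The 9 other pairs named at R1 each had a peak that reached 10 TPM in soleus R1 alone, and their values are given as a description. On chr13:99533744-99534779 (minus strand, gap 668 nt) the share was 92.5%, 96.1% and 96.6% in the controls and 33.01%, 31.4% and 36.1% at R1, with the downstream peak at 0.560 and 48.7 TPM. A nearly silent downstream start that became active was also seen on chr9:98490545-98493020 (plus strand, mean share 99.3% in controls and 54.4% at R1, downstream 0.0628 and 7.89 TPM) and on chr10:67856684-67861854 (plus strand, 87.1% and 42.2%, downstream 0.540 and 25.1 TPM). On chr1:214159110-214163825 (minus strand) the downstream start was already used in the controls, at 2.58 TPM beside 25.7 TPM at R1, and the mean share was 75.6% and 44.1%. A nearly silent upstream start became active on chr17:6840147-6840762 (plus strand, gap 58 nt), where the share was 0%, 0.840% and 0% in the controls and 62.4%, 25.04% and 30.5% at R1, and the level of the upstream peak 0.0288 and 33.4 TPM. The mean upstream share was also low in the controls and higher at R1 on chr20:9253841-9254236 (minus strand, 3.30% and 49.6%), chr1:231531144-231531484 (minus strand, 0.998% and 37.2%), chr14:59735024-59736789 (minus strand, 0.560% and 36.2%) and chr14:11255578-11256732 (plus strand, 0.839% and 33.4%).

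Peaks of pairs were also tested one by one at R1. Tested among all 9844 peaks of soleus (2295 called, 23.3%, where a call needed an adjusted p under 0.05 and a change of more than 2.38-fold), 312 of 971 peaks of pairs were called, 210 higher and 102 lower, beside 1384 of 7295 single peaks and 599 of 1578 peaks of larger chains. Of the 827 peaks of pairs that stay listed without R1 and control libraries, 192 were called, 90 of them higher. With the lane as a term 1 peak of a pair was called in soleus at R1. In 481 pairs both peaks were tested: 71 rose at both peaks, 30 fell at both, 1 fell upstream and rose downstream, and 271 had no peak called. In the rest a single peak was called, the upstream one rising in 37 and falling in 15 and the downstream one rising in 30 and falling in 26. The 481 include pairs from the 108 with a peak listed through soleus R1 alone, so nothing is read from the excess of rises. The log2 fold changes of the 2 peaks had the same sign in 384 of the 481 pairs, called or not, and in 46 of the 73 pairs with a called share, beside 278 of 413 pairs in EDL at R1, where no peak was called. Across the soleus pairs Pearson's r was 0.690, and 0.737, 0.614 and 0.728 in pairs with gaps under 200, of 200 to 1000 and over 1000 nt. Neighbouring peaks share libraries and scaling, so these r are a description. In EDL none of 886 peaks of pairs was called at R1 (edgeR; 5 by DESeq2).

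Peaks of pairs were also called one by one in the other phases. In soleus 19 of 971 were called at D1 (1.97% of all peaks), 15 at D3 (0.721%), 3 at D7 (0.122%), 19 at R3 (1.66%) and 52 at R7 (4.18%), where the percentage in parentheses is that of all 9844 peaks tested. In EDL 41 of 886 were called at D1 (3.16% of all 9341 peaks), 17 at D3 (1.34%) and 19 at D7 (1.04%), and 0 at R3 and at R7 (0% of all peaks).

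**Figure D5:**
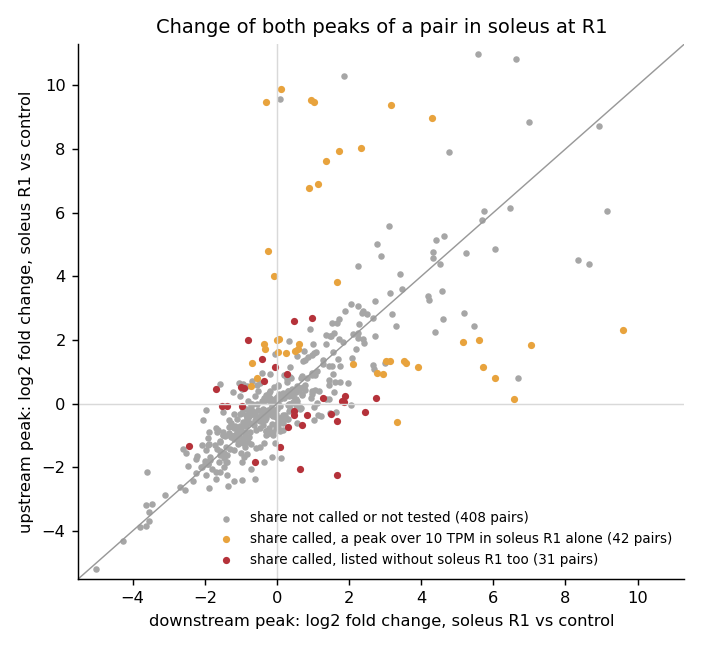
Log2 fold change of the downstream peak (horizontal axis) and the upstream peak (vertical axis) in soleus at R1 against the control, each point 1 of 481 pairs, with a line at equal change. Called shares are red where the pair stays listed without soleus R1 (31 pairs) and orange where a peak exceeded 10 TPM in soleus R1 alone (42 pairs). Orange pairs have a peak that is in the table because it was high in soleus R1, so nothing is read from their distance from the line. Grey points are pairs not called or not tested.

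The change at R1 was tested for a difference between the muscles in 345 pairs, and 4 were called (1.16% called), 3 with a larger change towards the upstream start in soleus and 1 with a larger change away from it. This number was 1 to 5 with single libraries left out, 0 at a minimum of 50 tags and 16 by DESeq2. With the rat as a block 2 of the 4 stayed below 0.05, and 2 pairs were called among the 292 that stay listed without the control and R1 libraries of both muscles. The pair on chr3:138397491-138398022 had EDL shares of 20.9% ± 5.08 in the controls and 23.0% ± 4.67 at R1 (n = 3), and the difference of the changes was 2.59 (SE 0.42, adjusted p = 0.000196, with the block 0.000391, edgeR). The pair on chr9:61690548-61691445 had EDL shares of 55.7% ± 5.73 and 55.6% ± 2.63, and the difference was -2.36 (SE 0.54, adjusted p = 0.0200, with the block 0.0196). For the pairs on chr4:118327343-118329295 and chrX:155861797-155862422 (both minus strand) the adjusted p was 0.0392 and 0.0435 without and 0.0805 with the block.

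Later in recovery few pairs differed from the controls. At R3 the only soleus call of 430 (0.233% called) was on chr2:188745388-188748445 (plus strand, 86.7% ± 2.504 in controls, 56.0% ± 6.67 at R3), and the only EDL call of 356 (0.281%) was on chr2:30748316-30750762. With single libraries left out these numbers were 0 to 4 in soleus and 0 to 2 in EDL, both were 0 with the lane as a term, and DESeq2 called 5 and 2. At R7 there were 3 soleus calls (0.698% called), the pairs starting at 85724842 on chr10 and 196402119 on chr2 and the pair on chr10:109727510-109729144 (minus strand, 97.9% ± 0.374 and 91.0% ± 4.42, SD, n = 3), and 0 in EDL (0% called, 18 at an unadjusted p under 0.05, 0 by DESeq2). Without the soleus R7 library of rat U19 the number at R7 was 23, and without that of R7 rat U12 or U13 or of control rat U6 or U7 it was 0. With the lane as a term it was also 0, and DESeq2 called 12. The shares in soleus R7 were uneven in several pairs named above, for example 9.33%, 25.2% and 56.8% on chr13:90589436-90593307, with the value of rat U19 nearest to the controls. Over all phases together 126 of 430 soleus pairs (29.3% called) and 12 of 356 EDL pairs (3.37%) were called, and 62 of the 126 were also called at R1. The 126 include pairs listed through soleus R1 alone and are not read as a property of the pairs. The soleus number was 62 at a minimum of 50 tags and 23 with the lane as a term, and the EDL number was 7 at a minimum of 50 tags, 7 to 18 with single libraries left out, 3 with the lane and 23 by DESeq2.

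An exchange of the dominant start, with more than 50% of the tags upstream in every library of one group and less than 50% in every library of the other, was rare. At R1 it was found in 10 of 458 soleus pairs with at least 10 tags per library (2.18%), 6 towards the upstream and 4 towards the downstream start, and 8 of these were also called, but only 6 of the 10 are pairs that stay listed without the groups compared. With shares over 60% against under 40% the number at R1 was 2 in soleus, and it was 0 in each EDL phase and 5 between the controls of the muscles. Those called comprised the pairs described above on chr3 (start 138397491), chr9 (61690548), chr15 (19876077), chr10 (85724842 and 85970559), chr13 (99533744) and chr1 (214159110) and the pair on chr11:72748559-72748816 (plus strand, 29.9%, 25.8% and 27.4% in controls, 67.9%, 57.0% and 50.4% at R1), which was also listed through soleus R1 alone. The pairs on chr2:131485787-131486085 and chr2:240654380-240655896 (both plus strand) exchanged rank without passing the test (adjusted p = 0.0597 and 0.0927, edgeR). In soleus 4 pairs did so at D1 (0.893%), 5 at D3 (1.11%), 4 at D7 (0.889%), 3 at R3 (0.656%) and 4 at R7 (0.893%). In EDL it was 5 of 410 pairs at R1 (1.22%), on chr2:198417530-198418724 (plus strand), chr5:129113054-129113387, chr8:48716852-48718632 (plus strand), chr10:72188004-72188892 and chr12:18532046-18532509 (plus strand). None of these was called, the one on chr10 being below the tag minimum of the test, and in the other phases it was 3 pairs at D1 (0.826%), 6 at D3 (1.4%), 5 at D7 (1.18%), 2 at R3 (0.475%) and 1 at R7 (0.24%). Pairs recur in these counts. The pair starting at 85724842 on chr10 is also among those at D1 and R7 in soleus and at D1 and D3 in EDL. The pair starting at 85970559 on chr10 is also among those at R3 and R7 in soleus, and that at 19876077 on chr15 at R7. Between the muscles the controls exchanged rank in 8 of 428 pairs (1.87%), among them chr8:48716852-48718632 with 92.9%, 92.2% and 90.3% in soleus and 30.0%, 34.7% and 29.5% in EDL, and over all 21 libraries of each muscle none of 345 pairs did (0%).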

How the data were processed

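Whole-number tag counts per TSS peak were used as deposited by the authors for 42 CAGE libraries of soleus and EDL. Per the file headers, starts were clustered by a tag-clustering protocol (level2 script version 2013.06.27) with no limit on mapping quality. The build is Rnor_6.0 in the submitters' notes, which also name Trimmomatic 0.38, BWA and HISAT2. The study's methods name STAR for mapping, allowing several loci per read, PromoterPipeline for starts and DPI for peaks, and which of these tools made the table is not settled. Tags at repeated sequence may be shared between loci. All deposited peaks reach 10 TPM in some library. Tag counts per position, also as deposited, gave the width of peaks and the tags between and ahead of them. The 42 columns of normalized signal that the authors deposited in the same table, whose scale the header does not state, were not used. Samples were grouped by the labels, and lanes were read from the column names.

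Peaks outside the mitochondrial chromosome (2 peaks left out) were chained at gaps of at most 5000 nt. Upstream and downstream counts were fitted per library with edgeR 4.0.16 (R 4.3.3, quasi-likelihood), with 1 coefficient per library and 1 upstream coefficient per group, for pairs with at least 10 tags in each library fitted. Within a muscle all 21 libraries entered the fit, and between muscles all 42. Peaks were tested with edgeR after TMM scaling. P-values were adjusted by Benjamini-Hochberg over all pairs or peaks tested. The method was also run on simulated counts, drawn with a fixed spread, no lane effect and no listing threshold. That run does not bear on these points. Tables and figures were made with Python 3.11.15.

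Pairs were named by a rule: called, at least 20 tags in each library of the groups compared, no overlap of the groups (of the controls, between muscles), and the largest differences in share, up to 8 per direction between muscles and at R1 in soleus, 3 in other phases and 5 for the interaction; every pair with an exchanged dominant start at R1 was added. The members, lists and tests were chosen with earlier results of these data known. Soleus and EDL with the same number come from the same rat, so the numbers pair the libraries by design; the deviations of a rat's muscles from their group means correlated by -0.346 to 0.428 over 345 pairs (median 0.152), above 0.1 in 12 of 21 rats. Alternatives were DESeq2 1.42.0, its size factors, other tag minimums, the rat as a block, the lane as a term and each library left out. A fit of all 42 libraries without the lane, the test between rats and the restriction by listing were added after seeing the data.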

Additional observations from a re-analysis of the deposited data

Results flagged for a closer look

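The change of start usage from control to R1 differed between soleus and EDL in 4 of 345 pairs (edgeR, interaction term). The difference of the changes in log2 ratio, soleus minus EDL, was 2.59 on chr3:138397491-138398022, 3.51 on chr4:118327343-118329295, -2.36 on chr9:61690548-61691445 and 2.02 on chrX:155861797-155862422. On chr4 the mean share rose from 0.831% ± 0.275 to 11.8% ± 4.91 in soleus and was 1.08% ± 0.327 and 1.68% ± 0.911 in EDL, and this pair was listed through soleus R1 alone, as was the one on chrX. On chrX the mean share was 49.6% ± 2.27 and 71.6% ± 3.45 in soleus and 49.1% ± 3.77 and 38.0% ± 4.90 in EDL (SD, n = 3 each). The lowest EDL library held 19 tags of the pair on chr3 and 17 of the pair on chrX. With the rat as a block the calls on chr4 and chrX were lost (adjusted p = 0.0805 for both, edgeR) and the other 2 stayed. No lane held both control and R1 libraries.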

How the results depend on the processing

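Single pairs named in the text kept direction and call in 1798 recomputed values, lost the call in 219 and turned sign in 3, all with the lane as a term: the pair starting at 85970559 on chr10 at R1 in soleus (-0.47) and the pair starting at 160933680 on chr3 in EDL at D1 (0.50) and D7 (0.37). Most of the recomputed values leave out 1 library. With the lane as a term 18 of the named results kept direction and call, 33 lost the call and these 3 turned, and the calls were 0 in each soleus phase and in EDL at D1, D3, D7 and R3, 23 over any phase in soleus and 3 in EDL, and 1 pair peak at R1 in soleus. At a minimum of 50 tags the soleus calls were 0 at D1, 3 at D7, 27 at R1, 0 at R3 and 62 over any phase, the EDL calls 2, 3 and 5 at D1, D3 and D7 and 7 over any phase, the muscle calls 61 over all phases and 25 in controls, and the interaction 0. That minimum also left fewer pairs to test, so a lower count there is not by itself a loss of calls. Without a minimum the calls were 2 at R3 in soleus and 7 for the interaction. DESeq2 called 11, 5 and 12 pairs at D3, R3 and R7 in soleus, 2 at R3 and 23 over any phase in EDL, 16 for the interaction and 5 pair peaks in EDL at R1. In the fit of all 42 libraries the soleus calls were 1, 11 and 5 at D1, D3 and R7, and 21 pairs were called over any phase in EDL. With the rat as a replicate block the interaction gave 2 calls, the muscles 128 and the controls 41, and the interaction calls on chr4 and chrX were lost (adjusted p = 0.0805 for both, edgeR) while the other named calls fitted with the block stayed. Among pairs listed outside the groups compared the calls were 14 at R1 in soleus, 54 and 15 between muscles and 2 for the interaction.

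For the dominant start, shares over 60% against under 40% gave 0, 1, 1, 2, 0 and 0 pairs in soleus from D1 to R7, 0 in each EDL phase and 5 between the controls, and a minimum of 50 tags gave 3 at D3 in soleus, 0, 1, 1 and 1 at D1, D3, D7 and R1 in EDL and 3 between the controls.

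With single libraries left out the soleus calls ran from 1 to 4 at D1, 1 to 9 at D3, 0 to 12 at D7, 51 to 86 at R1, 0 to 4 at R3, 0 to 23 at R7 and 97 to 135 over any phase. The EDL calls ran from 0 to 9 at D1, 3 to 21 at D3, 2 to 10 at D7, 0 to 0 at R1, 0 to 2 at R3, 0 to 1 at R7 and 7 to 18 over any phase. The muscle calls ran from 116 to 144, those in controls from 25 to 44 and the interaction from 1 to 5. Pair peaks at R1 ran from 260 to 304 in soleus and 0 to 0 in EDL. Exchanged starts ran from 4 to 10, 5 to 15, 4 to 11, 11 to 19, 4 to 11 and 4 to 9 in soleus, 3 to 7, 6 to 13, 5 to 8, 5 to 11, 3 to 6 and 1 to 6 in EDL, 0 to 1 between muscles and 9 to 13 between controls, where fewer libraries must be on the same side. The call at D7 in soleus was 0 without control rat U8 or D7 rat U1, that at D1 in EDL 0 without control rat U7 or U8 or D1 rat U25, that at D3 in EDL 21 without D3 rat U11, and that between controls 28 and 25 without EDL control rat U6 or U8. The causes were not tested. In EDL 138 and in soleus 64 pairs were below the tag minimum, and were not tested.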

Other observations

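In some pairs the rats of a group differed in start usage, in a fit where both muscles of a rat shared a coefficient. Differences within each muscle were not tested. A test between rats within groups, chosen after seeing the data, called 14 of 345 pairs (4.06% called, edgeR), with 54 at an unadjusted p under 0.05 and 0 calls with the lane as a term. On chr17:42267273-42269052 (minus strand, adjusted p = 0.0338) the shares in soleus and EDL of the D1 rats were 57.0% and 35.3% in U24, 48.2% and 51.6% in U25, and 82.4% and 77.8% in U26. U26 was highest in both muscles, and the order of U24 and U25 differed between them. Muscles of a rat were often sequenced on the same lane, and the part of the lane was not tested further.

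Among the 56 named pairs, which were picked by their results, 3 lie within 101842 nt on chr2, starting at 196300916, 196330742 and 196402119. How often pairs lie this close among all pairs was not counted. The first and the last of the 3 were called lower under unloading in soleus and in EDL respectively, and the first and the second had a higher share in soleus over all phases. The muscle difference of the first is a description, since that pair would not stay listed from each muscle alone.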
